A study of Rattus norvegicus with 35 samples.

Results

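Immediate early genes are transcribed within minutes of a signal by factors already present in the cell, without new protein synthesis, and their transcripts are short lived. Growth factors, cytokines and stress reach them through MAP kinases, which act on serum response factor with its partners and on CREB. In liver they are known for their rapid rise after partial hepatectomy. The 10 genes described here were chosen by symbol, with earlier results of these data known. They include the AP-1 subunits Fos, Fosb, Jun and Junb, the transcription factors Egr1 and Myc, and the early response regulators Ier2 and Ier3. The others are the MAP kinase phosphatase Dusp1 and Zfp36 (tristetraprolin), which binds AU-rich elements and promotes mRNA decay. All 10 were among the 14217 genes that the array represented by a probe set of a single symbol, and 14 probe sets carried them. Each gene was described by its probe set with the highest mean over the 35 arrays.

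The arrays measured liver RNA of male Sprague Dawley rats that were 7 weeks old at the start. TBB, a flame retardant and ester of brominated benzoic acid, was given by gavage in corn oil (5 ml/kg) on 5 days. The vehicle group received corn oil alone (0 mg/kg, n = 5 arrays), and the 5 treated groups (n = 6 each) received TBB at 0.05 mg/kg, 0.55 mg/kg, 5.50 mg/kg, 55 mg/kg and 550 mg/kg. Tissue of the left lobe was taken 1 day after the last dose, so the measurements are of that time and not of the hours that follow a dose. Whether every array stands for a separate rat is not said in the labels, and the p-values therefore cover the spread among arrays, which may be technical.

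All levels are deposited log2 values, on which a difference of 1 is a doubling. Correlations between arrays over all probe sets lay between 0.988 and 0.996, and no pair of arrays was identical. Markers of hepatocytes (10 of 11 measured) had mean levels between 13.24 and 13.39 in every array. Cyp1a1, a cytochrome P450 gene induced through the aryl hydrocarbon receptor, served as a check of the dose labels: its mean level was 4.53 with vehicle, 8.78 at 55 mg/kg and 11.86 at 550 mg/kg, with no overlap among the ranges of those 3 groups.

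Promoter letters are shown because the known inputs of the family, serum response factor and CREB, bind short motifs close to the start site. RefSeq promoters of the GRCr8 assembly were matched by symbol for 6 of the 10 genes (Fosb, Junb, Egr1, Ier2, Dusp1 and Zfp36), and the 250 bases before the start were searched on both strands. Fos, Jun, Ier3 and Myc had no entry in the table. The 4 stretches below carry matched motifs in capitals. Zfp36 held letters that match the CArG box, core of the serum response element. Ier2, Dusp1 and Junb held TGACGTCA or its shorter form TGACG, the cyclic AMP response element bound by CREB. Zfp36 lies at chr1:92799109-92799358 on the minus strand, Ier2 at chr19:40399123-40399372, Junb at chr19:40080876-40081125 and Dusp1 at chr10:17184603-17184852, these 3 on the plus strand.
Zfp36: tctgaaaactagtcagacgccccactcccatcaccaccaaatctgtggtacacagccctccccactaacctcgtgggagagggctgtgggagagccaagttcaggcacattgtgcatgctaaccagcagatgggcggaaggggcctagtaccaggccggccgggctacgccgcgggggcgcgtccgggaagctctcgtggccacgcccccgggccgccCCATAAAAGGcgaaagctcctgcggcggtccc
Ier2: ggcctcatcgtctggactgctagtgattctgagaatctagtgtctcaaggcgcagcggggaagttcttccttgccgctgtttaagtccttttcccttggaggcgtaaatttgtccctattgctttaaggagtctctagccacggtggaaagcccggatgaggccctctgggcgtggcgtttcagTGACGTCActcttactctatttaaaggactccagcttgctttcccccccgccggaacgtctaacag
Dusp1: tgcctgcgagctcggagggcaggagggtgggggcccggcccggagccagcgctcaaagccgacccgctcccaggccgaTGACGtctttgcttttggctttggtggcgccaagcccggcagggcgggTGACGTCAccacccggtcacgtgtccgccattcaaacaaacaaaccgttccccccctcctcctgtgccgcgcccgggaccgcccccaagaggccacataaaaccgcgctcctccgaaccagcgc
Junb: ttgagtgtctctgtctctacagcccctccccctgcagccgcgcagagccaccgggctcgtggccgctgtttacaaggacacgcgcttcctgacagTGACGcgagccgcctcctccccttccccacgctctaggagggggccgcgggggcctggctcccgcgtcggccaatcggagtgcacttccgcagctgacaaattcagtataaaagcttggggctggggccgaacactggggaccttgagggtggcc
Positions were counted back from the start, with -1 the last base shown. The CArG match of Zfp36 lay at -32 to -23, the full element of Ier2 at -66 to -59 and that of Dusp1 at -124 to -117. Egr1 held 2 CArG matches, both farther from the start than that of Zfp36, and 2 copies of TGACG. Whether the Zfp36 match acts as a serum response element was not tested. Fosb held no match to the CArG box, TGACGTCA or TGACG. A CArG box was present in 1.5% of the 33469 promoters in the table, TGACGTCA in 1.59% and TGACG in 18.2%. The full element reads as TGACG on both strands and was counted there too, which gave Ier2 2 and Dusp1 3 copies of the short form. The AP-1 site TGACTCA, bound by Fos and Jun proteins, was present in 4.05% of promoters and in 0 of these 6. A match is a description of these letters and not of binding.

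The level of each gene in the liver differed widely from array to array, in treated and vehicle groups alike. Among all genes on 1 probe set the median standard deviation within groups was 0.14, and among the 10 members it was 0.42. Egr1, a zinc-finger factor, varied most among the members, with a standard deviation of 1.08 and an 18.1-fold distance between its lowest and highest array. Myc (0.67), Dusp1 (0.57) and Jun (0.50) followed, then Ier3 (0.45), Ier2 (0.40), Zfp36 (0.35) and Junb (0.30). These 8 genes lay above the 90th percentile of all genes in that spread. Fosb (0.18) and Fos (0.17) were steadier and also dim: their mean levels of 2.89 and 4.33 stood at brightness percentiles 8.97 and 37.5 of all probe sets, against 70.0 to 92.5 for the other members. Dose group accounted for 2.34% (Zfp36) to 22.9% (Egr1) of a member's total variation, with a median of 12%. Over all genes the median was 14.6%, and equal group means would give 14.7% on average.

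**Figure D1:**
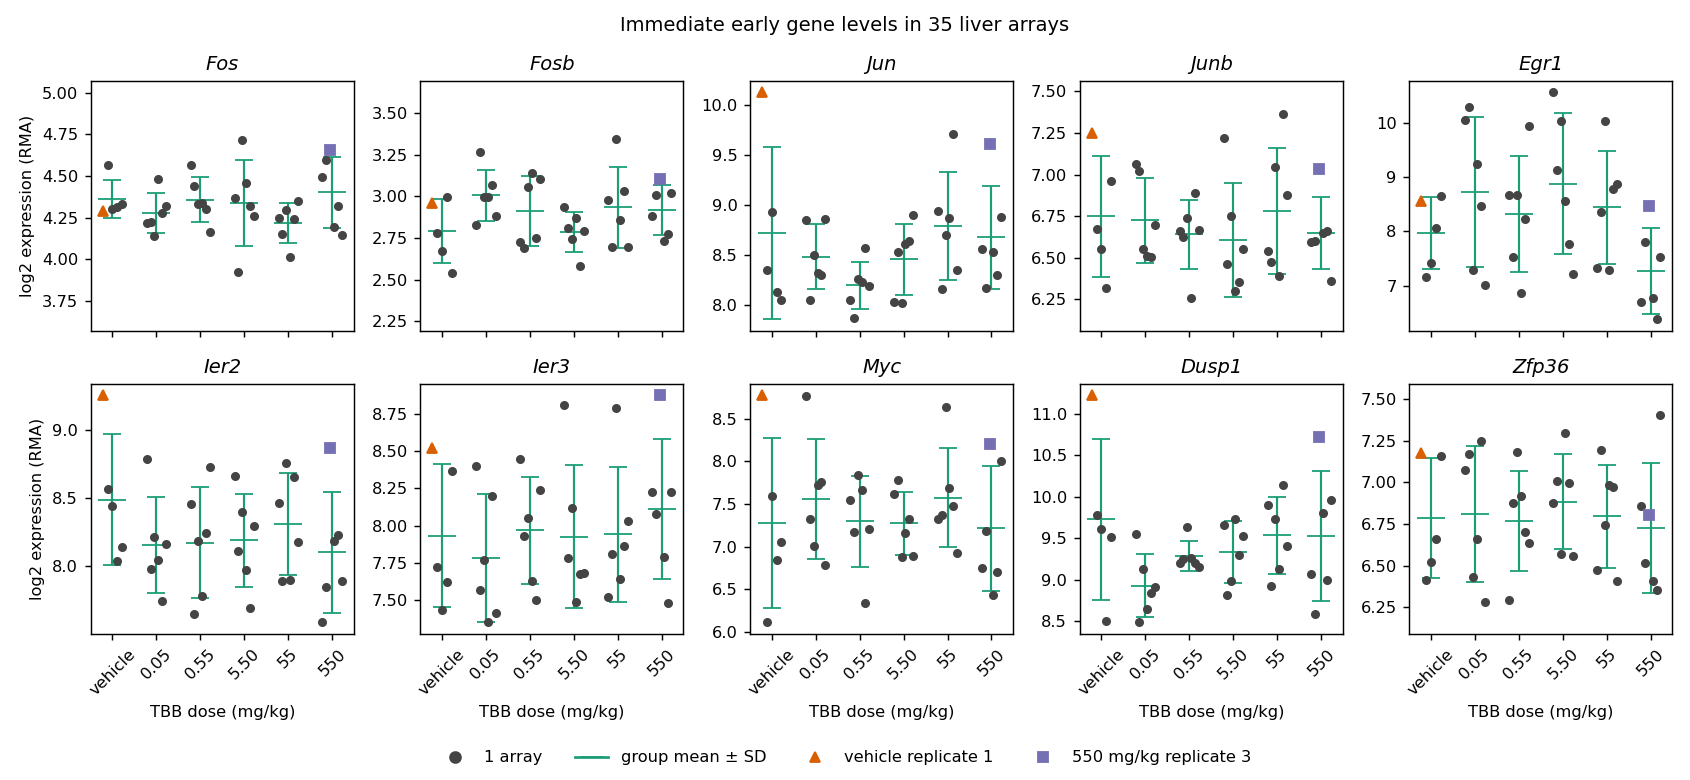
Log2 level (vertical axis) of each of the 10 genes by TBB dose in mg/kg (horizontal axis), with 1 point per array and the mean and SD of each group in green. The orange triangle is vehicle replicate 1 and the purple square 550 mg/kg replicate 3; vertical axes differ between panels. In every panel each dose group overlaps the vehicle arrays.

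Egr1 was the member with the widest distances between dose groups, and none of them passed the test. Its vehicle arrays read 8.55, 7.16, 7.41, 8.07 and 8.66. The lowest, median and highest array read 7.02, 8.86 and 10.28 at 0.05 mg/kg, 6.87, 8.45 and 9.95 at 0.55 mg/kg, and 7.22, 8.85 and 10.56 at 5.50 mg/kg. The 4 lower doses each had arrays above every vehicle array. At 55 mg/kg the values were 7.29, 8.57 and 10.02, and at 550 mg/kg they were 6.38, 7.16 and 8.47. All 550 mg/kg arrays lay below the highest vehicle array, and the ranges overlapped. The difference from vehicle was 0.91 ± 0.61 (standard error) at 5.50 mg/kg and -0.69 ± 0.61 at 550 mg/kg, with a 95% interval of -1.92 to 0.54 for the latter and an adjusted p of 0.82 by limma. Between the 2 highest doses it was -1.16 ± 0.58 (550 minus 55 mg/kg; interval -2.34 to 0.01), with an unadjusted p of 0.052 and an adjusted p of 0.54 by limma.

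Dusp1, the phosphatase that switches MAP kinases off, stood at brightness percentile 92.5, and its contrast with vehicle rested in part on 1 vehicle array. Its vehicle arrays read 11.23, 9.78, 9.62, 8.50 and 9.52, the first being the highest of all 35 arrays. The lowest, median and highest array read 8.49, 8.88 and 9.55 at 0.05 mg/kg, 9.15, 9.23 and 9.64 at 0.55 mg/kg, and 8.81, 9.41 and 9.73 at 5.50 mg/kg. These 3 groups lay inside the vehicle range or, at 0.05 mg/kg, reached just below it. At 55 mg/kg the values were 8.93, 9.57 and 10.14, and at 550 mg/kg 8.59, 9.44 and 10.73. The mean at 0.05 mg/kg was below vehicle by -0.80 ± 0.32 (interval -1.46 to -0.14), with an unadjusted p of 0.019 and an adjusted p of 0.80 by limma. Without vehicle replicate 1 that difference was -0.42, and without vehicle replicate 4 it was -1.11. At 550 mg/kg the difference was -0.20 with all arrays and 0.17 without vehicle replicate 1.

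The AP-1 genes gave smaller distances. Jun read 10.12, 8.35, 8.93, 8.13 and 8.04 with vehicle and 8.17, 8.55 and 9.61 (lowest, median and highest) at 550 mg/kg. Vehicle replicate 1 was again the highest array. Its difference from vehicle ran from -0.52 ± 0.28 at 0.55 mg/kg to 0.07 ± 0.28 at 55 mg/kg. Without vehicle replicate 1 these values were -0.17 and 0.42. Junb, which can replace Jun in the dimer, read 7.25, 6.67, 6.55, 6.32 and 6.96 with vehicle and 6.36, 6.62 and 7.03 at 550 mg/kg, a difference of -0.10. Fos read 4.29, 4.57, 4.30, 4.32 and 4.34 with vehicle, and its 30 treated arrays lay between 3.93 and 4.72. Fosb differed from vehicle by 0.22 ± 0.11 at 0.05 mg/kg and by 0.13 ± 0.11 at 550 mg/kg.

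The other 4 genes followed the same description. Ier2 read 9.25, 8.56, 8.44, 8.04 and 8.14 with vehicle and 7.59, 8.04 and 8.87 at 550 mg/kg. Its mean was below vehicle at all 5 doses, by -0.33, -0.32, -0.30, -0.18 and -0.39 in order of dose, with an adjusted p of 0.68 by limma at 550 mg/kg. The 5 differences share the same vehicle arrays, and without vehicle replicate 1 they were -0.14, -0.12, -0.11, 0.0091 and -0.19. Myc, a factor of growth and the cell cycle, read 8.78, 6.11, 7.60, 6.84 and 7.05 with vehicle, spanning 2.66 within that group alone. Ier3, a stress-induced regulator of cell survival, read 8.52, 7.72, 7.43, 7.62 and 8.36 with vehicle and differed by 0.18 ± 0.25 at 550 mg/kg. Zfp36 read 7.18, 6.41, 6.52, 6.66 and 7.16 with vehicle, and its differences ran from -0.06 at 550 mg/kg to 0.10 at 5.50 mg/kg.

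Against dose, 0 of the 10 members passed an adjusted p of 0.05 in any comparison by limma, and 0 by a linear model without variance moderation. The share of all 31042 probe sets that passed was 0% at 0.05, 0.55 and 5.50 mg/kg, 0.00644% at 55 mg/kg and 0.499% at 550 mg/kg against vehicle. It was 0.686% for 550 against 55 mg/kg, 0.741% for any difference between groups and 0.171% for a slope over the order of the doses. At an unadjusted p under 0.05 the members, each on its 1 described probe set, gave 1 call: Dusp1, lower at 0.05 mg/kg. At that dose 6.05% of probe sets passed, and 0 members passed elsewhere. There the shares of probe sets were 3.86% at 0.55, 4.95% at 5.50, 4.2% at 55 and 8.67% at 550 mg/kg, 9.43% between the 2 highest doses, 8.32% for any difference and 9.42% for the slope. The numbers of members with a higher and lower mean than vehicle were 4 and 6 at 0.05 mg/kg, 4 and 6 at 0.55 mg/kg, 3 and 7 at 5.50 mg/kg, 7 and 3 at 55 mg/kg, and 3 and 7 at 550 mg/kg. The median difference of the members stayed between -0.06 and 0.02 over the 5 doses, where the median of all probe sets was 0.00 each time. The smallest adjusted p of any member was 0.54, for Egr1 between the 2 highest doses. In all 50 pairings of a member with a dose, the range of the dose group overlapped that of vehicle. Precision was limited: the median half-width of a 95% interval against vehicle was 0.17 over all probe sets. Over the members the half-widths ran from 0.20 to 1.23, and changes inside them could not be told from 0 even before adjustment. Larger changes could also miss the adjusted threshold. Dusp1 at 0.05 mg/kg, at -0.80, had an interval that left out 0 and an adjusted p of 0.80 by limma.

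**Figure D2:**
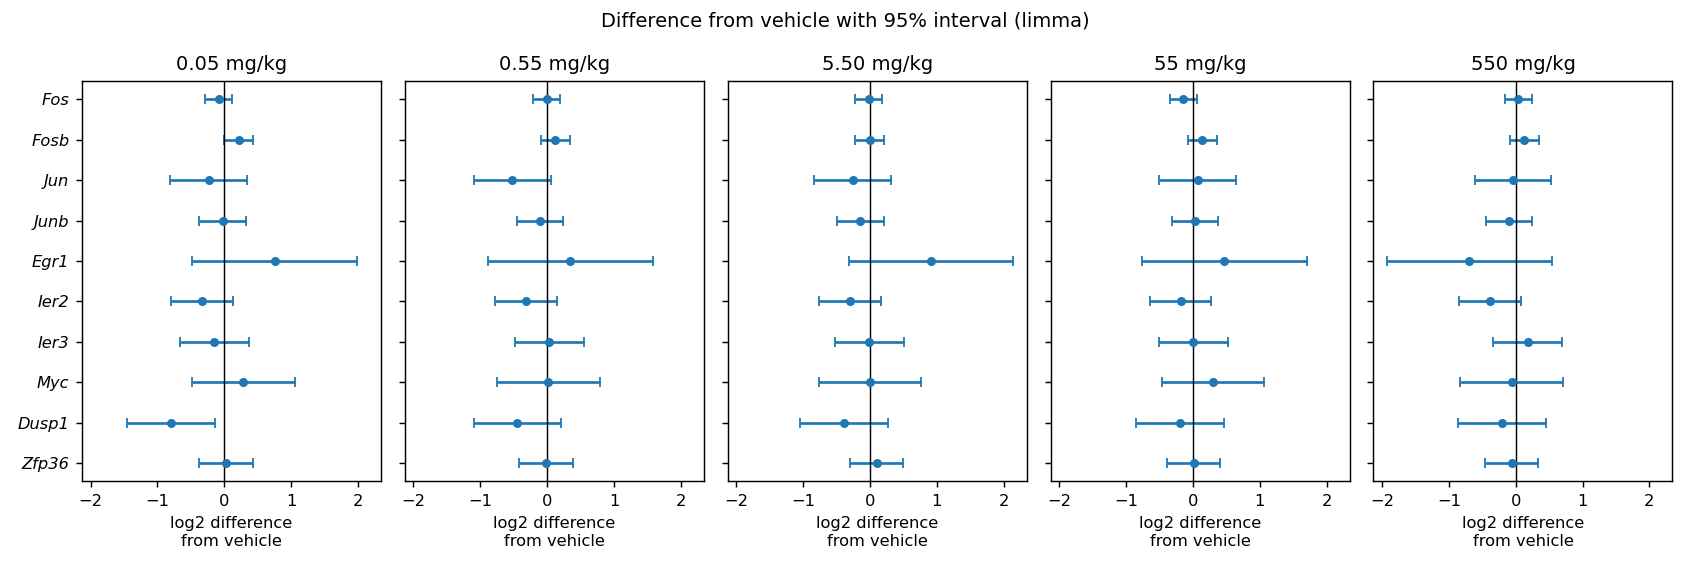
Log2 difference from vehicle (horizontal axis) of each member at each of the 5 doses (panels), with the 95% interval of the fit as a bar. Egr1 has the widest intervals and Fos and Fosb the narrowest; the 0.05 mg/kg interval of Dusp1, -1.46 to -0.14, is the one that leaves out 0.

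Within dose groups the members varied together, and this was the larger pattern. Each value was taken as its deviation from its own group's mean, so that no difference between doses could enter, and the 45 pairs of members were correlated over the 35 arrays. The median Pearson r was 0.28, and 40 of 45 pairs (88.9%) were above 0. Over all 101054436 pairs of genes the median was 0.00 and 50.1% were above 0. Among the tenth of genes with the largest spread within groups the median was 0.03, with 55.1% above 0. An r of at least 0.5 was found in 12 member pairs (26.7%), in 1.44% of all gene pairs and in 5.32% of pairs of those variable genes. Pairs that share a gene are not independent of each other. With values permuted between arrays of a group (100000 permutations) and adjusted over the 45 pairs, 13 pairs passed an adjusted p of 0.05, all with positive r, and 19 had an unadjusted p under 0.05. By Spearman's rho 7 passed, all 7 among the 13. The members were chosen with earlier results of these data known, and the permutation p-values do not account for that choice.

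The pairs that passed joined 8 of the 10 members. Ier2 took part in 5, Junb, Egr1 and Ier3 in 4 each, Myc and Dusp1 in 3, Jun in 2 and Zfp36 in 1. Fos and Fosb, the dim ones, took part in none. Among the 28 pairs of the other 8 genes the median r was 0.46 and 26 were positive.

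Jun and Dusp1 gave the highest r, 0.78 over 35 arrays (permutation p 3e-05, adjusted 0.00067), with a rho of 0.67 (adjusted permutation p 0.0018). The 2 arrays that lay farthest from the median of the first gene named were then left out, so these arrays differ between pairs: for Jun they were vehicle replicate 1 and 550 mg/kg replicate 3, and r was 0.57 without them. Junb and Ier2 gave 0.70 (permutation p 3e-05, adjusted 0.00067; rho 0.68, adjusted 0.0016) and 0.68 without the 2 arrays farthest out for Junb, 5.50 mg/kg replicate 1 and 55 mg/kg replicate 5. Egr1 and Ier3 gave 0.67 (permutation p 7e-05, adjusted 0.001; rho 0.66, adjusted 0.0016) and 0.66 without those for Egr1, 0.05 mg/kg replicate 6 and 5.50 mg/kg replicate 6. Ier2 and Dusp1 gave 0.66 (permutation p 0.00015, adjusted 0.0017; rho 0.54, adjusted 0.016), and 0.46 without vehicle replicate 1 and 550 mg/kg replicate 3, also farthest out for Ier2. Junb and Egr1 gave 0.61 (permutation p 0.00022, adjusted 0.002; rho 0.65, adjusted 0.0016), and 0.59 without the 2 for Junb. Ier3 and Myc gave 0.60 (permutation p 0.00058, adjusted 0.0043), but their rho of 0.47 had an adjusted permutation p of 0.054. The remaining called pairs had r between 0.45 and 0.60, and among them Jun and Ier2 went from 0.53 to 0.26 without the 2 for Jun.

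**Figure D3:**
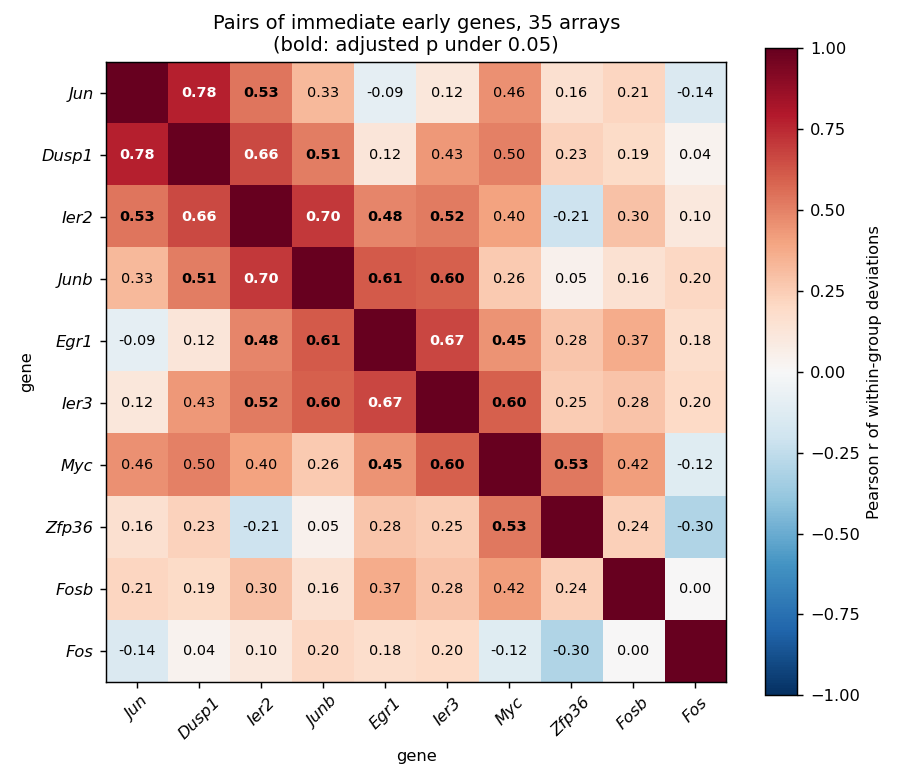
Pearson r between the members' deviations from their group means over 35 arrays, for all 45 pairs, with bold numbers where the adjusted permutation p is under 0.05. The 13 bold pairs are all positive, from 0.45 (Egr1 and Myc) to 0.78 (Jun and Dusp1), and the rows of Fos and Fosb hold none.

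The members did not form 1 block. Jun and Egr1, both tied to genes that passed, had an r of -0.09 (permutation p 0.59, adjusted 0.63; rho -0.24) and -0.35 without the 2 arrays farthest out for Jun, and their r within single dose groups ran from -0.96 to 0.66. Egr1 and Dusp1 had an r of 0.12 (permutation p 0.44, adjusted 0.52). All 3 pairs among Jun, Dusp1 and Ier2 passed by r, as did all 3 among Junb, Egr1 and Ier3, though Jun with Ier2 had a rho of 0.38 (adjusted permutation p 0.15). Pairs across these sets passed too: Ier2 with Junb, Egr1 and Ier3, and Junb with Dusp1 (r 0.51, adjusted permutation p 0.017). Among these, only Ier2 with Junb also passed by rho, and only it passed without 550 mg/kg replicate 3. For Ier2 with Egr1, Ier2 with Ier3 and Junb with Dusp1 the adjusted permutation p of rho was 0.069, 0.23 and 0.23. Zfp36 passed with Myc alone (r 0.53, permutation p 0.0041, adjusted 0.017). Its r with Ier2 was -0.21 (permutation p 0.27, adjusted 0.41) and with Fos -0.30 (permutation p 0.1, adjusted 0.23), each below 0 in all 5 dose groups of 6 arrays.

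**Figure D4:**
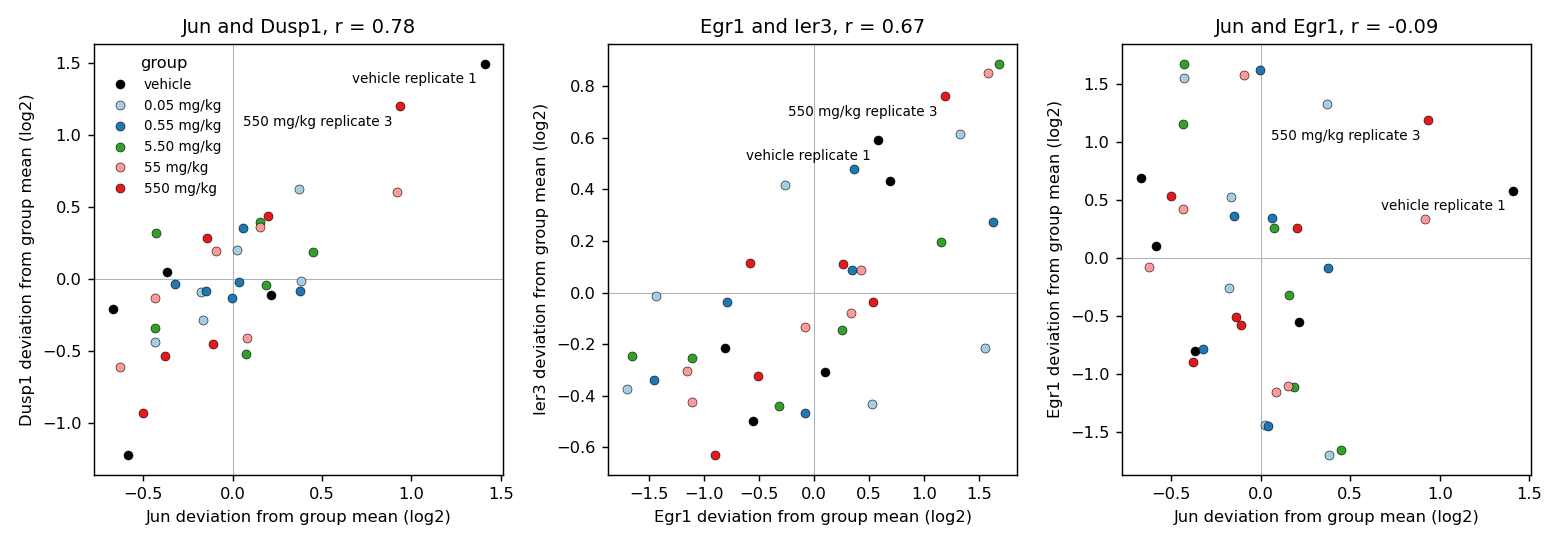
Deviations from the group mean (log2) of 3 pairs of members, with 1 point per array. Jun against Dusp1 (r 0.78) and Egr1 against Ier3 (r 0.67) slope upwards, and Jun against Egr1 (r -0.09) does not.

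Single arrays in which many members were high stood in every group, from vehicle to the highest dose. A score was formed as the mean of the 10 members' deviations, each divided by that gene's standard deviation within groups. In the vehicle group, replicate 1 scored 1.48: 9 members were above the group mean and 7 were at their highest there, among them Jun at 10.12, Dusp1 at 11.23 and Myc at 8.78. The other 4 vehicle arrays scored between -0.66 and -0.11. At 550 mg/kg, replicate 3 scored 1.42, with all 10 members above the mean and 9 at their highest, among them Jun at 9.61 and Ier3 at 8.88. The other 5 arrays of that group lay between -0.67 and 0.24.

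In the middle groups the same was seen to a smaller extent. At 0.05 mg/kg, replicate 1 scored 0.84 with 8 members above the mean, and Myc reached 8.77 there. At 5.50 mg/kg, replicate 1 scored 0.79 with 8 above, and its Egr1 of 10.56 was the highest of all arrays, while Jun read 8.02 there, near the group's lowest. At 55 mg/kg 2 arrays stood high with different genes: replicate 3 (0.97) held the highest Egr1, Ier2, Ier3 and Myc of its group, and replicate 5 (0.69) the highest Jun, Junb and Dusp1. At 0.55 mg/kg the arrays were closest together, with a score range of 0.78 against 2.14 with vehicle, 1.32 at 0.05, 1.21 at 5.50, 1.53 at 55 and 2.09 at 550 mg/kg. The ranges of vehicle and the highest dose were thus the widest, and differences between these ranges were not tested.

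**Figure D5:**
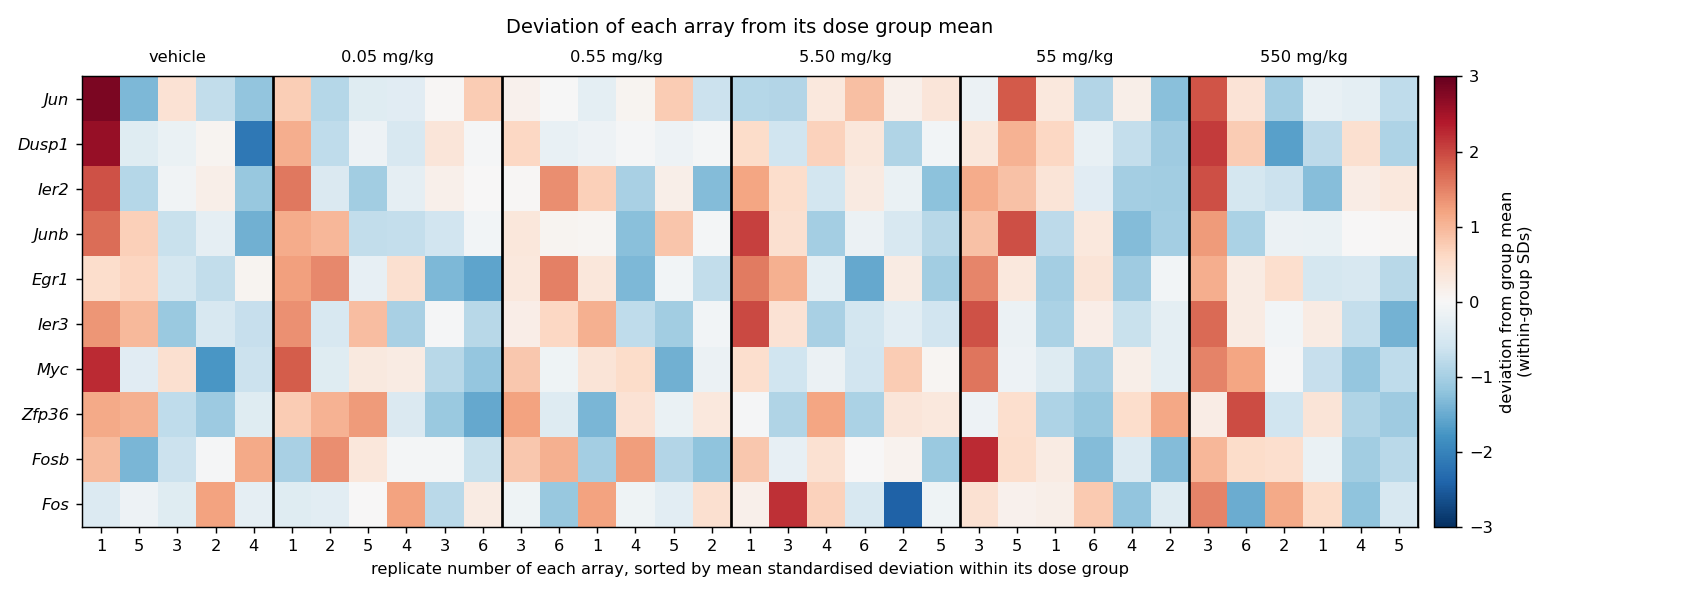
Deviation of each member (rows) from its group mean in each of the 35 arrays (columns, sorted by score within the 6 dose groups), in units of the gene's standard deviation within groups. Vehicle replicate 1 and 550 mg/kg replicate 3 are high in nearly all rows, with scores of 1.48 and 1.42.

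The correlations were found in several dose groups, and some of them rested on those 2 arrays. Of the 13 called pairs, 10 had a positive r in each of the 5 dose groups of 6 arrays; no r was taken within the vehicle group because it has 5. Junb and Egr1 had r of 0.65, 0.57, 0.74, 0.71 and 0.44 in order of dose. Junb and Ier2 had 0.59, 0.46, 0.89, 0.78 and 0.83. Jun and Dusp1 had 0.79, 0.07, 0.17, 0.79 and 0.93, and were thus closely tied at the lowest dose and the 2 highest. Of the 13 pairs, 8 passed whichever single array was left out. Without both vehicle replicate 1 and 550 mg/kg replicate 3, 4 passed: Jun with Dusp1 (r 0.57, adjusted permutation p 0.028), Junb with Egr1 (0.59, 0.021), Junb with Ier2 (0.62, 0.014) and Egr1 with Ier3 (0.64, 0.014). The median r of the 45 pairs was then 0.18, with 34 positive.

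Other probe sets of the same genes measured the same arrays through other probes. The second probe set of Dusp1 had an r of 0.95 with the first, and both other probe sets of Jun had 0.95 and 0.98. The second probe set of Fos had an r of 0.01 with the first, so the 2 Fos probe sets gave different readings, both dim. Its standard deviation of 0.39 was above the 0.17 of the first. Its highest arrays were 55 mg/kg replicate 1 at 4.28 and 550 mg/kg replicate 3 at 4.16, and its r was 0.50 with Dusp1 and 0.44 with Jun. Its slope over the order of the doses was 0.077 per step (unadjusted p 0.046, adjusted p 0.52 by limma). For that slope 9.42% of all probe sets had an unadjusted p under 0.05. The second probe set of Dusp1 differed from vehicle by -0.93 ± 0.39 at 0.05 mg/kg (unadjusted p 0.022, adjusted p 0.80 by limma).

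Genes outside the list whose deviations were most like the score were sought among the 9552 genes above the median level of 5.13. The values below describe these arrays, since the score was made from the same arrays, and carry no test. An r of at least 0.5 was reached by 121 of them (1.27%), and the median r was 0.02. The highest were Gadd45g (0.85), a stress-induced growth arrest gene, and Trib1 (0.84), a pseudokinase. Next were Rhobtb3 (0.81), Zswim1 (0.80) and the ERK phosphatase Dusp6 (0.78), then Cish (0.77), a feedback inhibitor of cytokine receptors, and Lrig1 (0.75), an inhibitor of growth factor receptors. Irak2, Nuak2 and Gadd45a, at 0.73 each, completed the 10 highest. The lowest were Smad7 (-0.79), an inhibitor of TGF-beta signalling, Gtf3c4 (-0.75), the growth factor receptor gene Egfr (-0.70), Zfp622 (-0.68) and Zyx (-0.68).

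Lists of related genes described how far the shared variation reached. Of 21 further immediate early transcription factors, all measured, the median r with the score was 0.03; Klf6 (0.72) and Csrnp1 (0.66) were highest and Id2 (-0.55) lowest. Of 28 further fast-induced regulators 27 were measured, with a median of 0.03 and 5 at or above 0.5, among them Gadd45g, Trib1 and Dusp6. The MAP kinase pathway upstream (16 of 26 measured) had a median of -0.09, from Egfr at -0.70 to Araf at 0.32. Early targets of NF-kB and cytokines (16 of 16) had a median of -0.02, with Socs3 (0.66) and Cxcl1 (0.43) highest. Of the 5 genes listed for the Zfp36 family and other proteins that bind AU-rich elements, Zfp36l1 (0.55) alone was above 0. These medians are over single genes. The mean level of each list, a different measure, had r of 0.07, 0.55, -0.43, 0.03 and -0.12 with the score, in the order named. None of the measured genes of these 5 lists passed limma's test in any of the 8 comparisons.

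Several measures of the tissue and the RNA were set beside the score. All 9 measured markers of Kupffer cells and macrophages (of 11) had a negative r with it, from -0.35 to -0.19, and their mean level had an r of -0.25 (rho -0.30). That mean ranged from 8.63 to 9.03 with vehicle, 8.22 to 9.10 at 0.05, 7.74 to 9.11 at 0.55, 7.91 to 9.04 at 5.50, 8.36 to 9.18 at 55 and 8.22 to 8.94 at 550 mg/kg. The mean of 10 hepatocyte markers had an r of -0.24. Of these 10 markers taken singly, 7 had a positive r, with a median of 0.06 and Hnf4a lowest at -0.49. The mean of 14 circadian clock genes had an r of 0.36, against a median of 0.05 over the single genes. That of 8 stellate cell markers had 0.20, against a median of 0.19. The means of the markers of cholangiocytes (5 of 6 measured), red blood cells (3 of 6), endothelium (7 of 9), lymphocytes (6 of 8) and neutrophils (6 of 7) had r of 0.19, 0.09, 0.06, -0.11 and -0.14. In bulk tissue, fewer cells of a type and less RNA per cell cannot be told apart. The distance between 3' and 5' probe sets, a measure of RNA integrity, had an r of -0.03 with the score for beta-actin, 0.14 for GAPDH and -0.29 for hexokinase. Without the 2 arrays farthest out on each measure these were -0.30, -0.04 and -0.25. Over single members r ran from -0.40 (Jun) to 0.26 (Egr1) for beta-actin, from -0.39 (Jun) to 0.43 (Egr1) for GAPDH and from -0.48 (Ier3) to 0.18 (Jun) for hexokinase. The first principal component of the deviations of all genes, each on 1 probe set (12.5% of the variance), had an r of 0.41 with the score. The second (11.1%) had 0.08 and the third (8.63%) 0.48. The sign of a component is free and was set so that each r was positive. The median and the upper quartile of the gene levels of an array had r of -0.03 and -0.07. The part of these measures in the shared variation was not tested.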

How the data were processed

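The authors deposited 1 log2 level per probe set and array, made by RMA with affy, per the submitters' processing notes; which versions and chip definition were used is not given in the sources read. RNA had an integrity number of at least 7.0, per the labels' protocols. RMA includes quantile normalisation, so a shift shared by most genes cannot be seen, and dim values are compressed. Of the probe sets, 57 controls were left out and 31042 tested; 20826 had 1 symbol in the platform annotation, 436 several and 9780 none listed.

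Differences were fitted with limma 3.58.1 in R 4.3.3 (1 mean per group over 35 arrays, lmFit and eBayes, two-sided, Benjamini-Hochberg within each of 8 comparisons, threshold 0.05). The slope used dose ranks. Correlations used deviations from group means, with 100000 two-sided permutations within groups (numpy 2.4.6) and adjustment over 45 pairs. On simulated data for 550 mg/kg against vehicle, with all 31042 probe sets, limma recovered 95% of changes of 1 log2 unit. These changes were planted in 100 probe sets drawn from those above the median level, each with its own spread. The members varied more (median standard deviation within groups 0.42, against 0.14 over all genes). The 95% therefore does not describe them, and recovery for the members was not simulated. The members, lists and tests were chosen with earlier results of these data known. Named genes were all 10 members, the 10 highest and 5 lowest genes by r with the score, and each member's nearest gene; in the lists, the extremes by r. The number of arrays limits the precision. Alternatives were leaving out each array, dim probe sets or other groups, other scalings, other variance settings, array weights, other probe sets, rank correlation and the replicate number as a block.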

Additional observations from a re-analysis of the deposited data

Results flagged for a closer look

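Of 60 combinations of a member and a group, 2 held an array that stood apart from the rest of its group by more than the 95% critical value of the gap divided by the range; chance gives about 1 in 20. For Fos, vehicle replicate 2 read 4.57 and the next array 4.34, a gap of 0.84 of the group's range against a critical value of 0.71. For Dusp1, 0.55 mg/kg replicate 3 read 9.64 and the next array 9.26, a gap of 0.78 against 0.625. That array also had the highest score of its group, 0.43, with 9 members above the group mean.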

How the results depend on the processing

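No member passed an adjusted p of 0.05 in any of the 8 comparisons by limma under any alternative run; the smallest adjusted p over all of them was 0.37. Leaving out 1 array moved the difference at 550 mg/kg across 0 for 6 genes, none of which had passed: from -0.011 to 0.091 for Fos, -0.23 to 0.31 for Jun, -0.21 to 0.024 for Junb, -0.35 to 0.31 for Myc, -0.51 to 0.17 for Dusp1 and -0.20 to 0.038 for Zfp36. The number of called pairs, 13, was 7 by Spearman's rho and 4 without the 2 arrays of highest score, where the median r was 0.18; it ran from 8 (without 550 mg/kg replicate 3) to 16 with 1 array left out, and the median r from 0.24 to 0.33. With Fos and Fosb left out, a choice made after seeing the data, the median r was 0.46. With the replicate block 7 pairs passed and the median r was 0.27; equal numbers do not show paired samples here, since the median correlation of same-numbered arrays lay between -0.07 and 0.02 and 6 of 35 arrays were most like an array of their own number. Over all probe sets, the 155 calls at 550 mg/kg were 41 with only the 2 groups fitted, and the 213 calls between the 2 highest doses were 76 with only the 2 groups and 327 with array weights. For any difference between groups the 230 calls were 383 with array weights. The 53 calls of the slope were 93 to 141 under 5 alternatives. With 1 array left out, the 155 were 77 to 142 (82, 77 and 88 without vehicle replicates 1 and 3 and 550 mg/kg replicate 2), the 213 were 123 to 197 (123 and 137 without 55 mg/kg replicates 1 and 4), and the 230 were 128 to 248 (130, 128 and 138 without 550 mg/kg replicates 2, 4 and 5). The 53 were then 20 to 104: 21, 20, 30, 28 and 20 without 550 mg/kg replicates 1, 2, 3, 4 and 6, and 104, 88 and 88 without vehicle replicate 2 and 55 mg/kg replicates 1 and 6. The causes were not tested. Dimness limits what Fos and Fosb can show.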

Other observations

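Each member had a nearest gene of its own outside the list. Ier2 was most like Dusp6, the ERK phosphatase (r 0.86), Ier3 like Crebrf (0.85), Egr1 like B4galnt1 (0.83), Junb like Frat2 (0.81) and Jun like Sox13 (0.78). Dusp1 was most like Cish (0.75), Myc like Spry1 (0.75), an inhibitor of receptor tyrosine kinase signalling, Zfp36 like Tcim (0.73), Fosb like Sigirr (0.68) and Fos like Vash1 (0.64). For Dusp1, 0 of 9552 genes outside the list were closer than its nearest member, Jun, and for Jun 1 was closer than Dusp1. For Fos 1135 were closer than its nearest member, Junb. These values describe the same 35 arrays and carry no test.

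Other stress and rhythm genes were set against the score in the same way. Heat shock genes (9 of 12 measured) had a median r of -0.20, from Dnajb1 at -0.55 to Hspa1a at 0.27, and Hsph1 passed limma's test of any difference between groups (adjusted p 0.049; -0.44 ± 0.12 at 550 mg/kg, adjusted p 0.085). Glucocorticoid-responsive genes (10 of 11) had a median of -0.12, from the receptor gene Nr3c1 at -0.56 to Fkbp5 at 0.41. Hypoxia-responsive genes (13 of 13) had a median of 0.03, with the glucose transporter gene Slc2a1 highest at 0.54. Circadian clock genes (14 of 16) had a median of 0.05, with Cry2 at 0.36 and Clock at -0.23. Among hepatocyte markers, Apoa1, which encodes the main protein of high-density lipoprotein, fell by 0.51 ± 0.06 at 550 mg/kg (limma adjusted p 7.3e-06), and its r with the score was 0.40.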
